A study of Mus musculus with 7 samples.

Results

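The expression of 9 genes of the megakaryocyte and platelet programme was followed here across genotypes in hematopoietic stem cells (HSCs): Vwf, Selp, Itga2b, Itgb3, Pf4, Gp9, Gp1bb, Gp5 and Clu. Members were taken as array rows whose platform annotation names one of these genes alone. That gave 8 probe sets for 8 genes, 1 per gene, among 25335 annotated probe sets tested and 41155 rows in all. The only row for Gp1bb also names Septin5, so Gp1bb has no value here. The tested samples were 3 arrays of HSCs from Ahr knockout mice (Ahr-KO), set against 4 arrays of HSCs from mice with wild-type Ahr (WT). Both groups shared the C57BL/6J background, were killed at 8 weeks of age and had received no treatment that the labels name. Ahr encodes the aryl hydrocarbon receptor, a ligand-activated transcription factor. Which part of the gene was deleted is not in the labels, nor is whether all cells of the animal carried the deletion, or an array held cells of a single mouse or a pool. P-values therefore reflect how much these arrays differed from each other, which may be technical spread.

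Megakaryocytes are the large marrow cells that shed platelets. A part of the HSC compartment already carries megakaryocyte transcripts and, in mice, favours platelet output. Von Willebrand factor expression is a common mark of such platelet-biased stem cells, and Vwf, Selp, Itga2b and Clu are among the transcripts known to be higher in HSCs of old mice. The remaining members encode platelet surface receptors and a granule chemokine that are made in quantity during megakaryocyte maturation. Vwf and Selp are also made by endothelial cells.

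Lineage-positive cells had been removed from the marrow and HSCs isolated with SLAM family surface markers. A version of the cited SLAM scheme also gates out CD41, the product of Itga2b. The labels leave out whether that gate was applied. The values are linear intensities, 1 per probe set and array, whose medians ran from 16.9 to 20.3 on the Ahr-KO arrays and from 16.95 to 22.1 on the WT arrays. No detection call accompanied them, so a background mark was set on each array from 1108 probe sets of olfactory receptors, which HSCs should not express. The mark, their 95th percentile, lay at 33.8 to 37.6 on Ahr-KO arrays and 33.9 to 42.8 on WT arrays. WT replicate 2 stood apart: 30.7% of the tested probe sets exceeded the mark there, against 34.0 to 44.9% on the other arrays, and its mean correlation with the other arrays was the lowest at 0.646. Results are therefore also given without it. The intensity of the Ahr probe set does not check the genotype labels, because the deleted part is not stated. Of 7 measured HSC markers, Kit and Hlf exceeded the mark on all 7 arrays and the other 5 on some. Procr and Mecom exceeded it on 6 arrays each, and Fgd5 and Ctnnal1 on 2 each. Slamf1, which encodes the CD150 marker of the sort, exceeded it on 3 of 3 Ahr-KO arrays (57.4, 78.0 and 236) and on 1 of 4 WT arrays (4.56, 23.3, 7.81 and 73.3).

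The RefSeq promoter table (GRCm38.p6, 250 bases before to 50 after each listed start) held 6 of the 9 genes. The promoters of 4 members are printed: those of Pf4 and Itga2b, members whose values are compared array by array below, that of Gp9, whose groups did not overlap, and that of Gp5, which encodes another subunit of the same receptor complex. Each runs 5′ to 3′ along the gene's own strand, and capitals mark every match to AGATAA or TGATAA (forms of the GATA site) and CAGGAA or CGGAAG (forms of the ETS site) on either strand. No matches overlapped. The positions are chr5:90772185-90772484 (plus strand) for Pf4, chr11:102469834-102470133 (minus strand) for Itga2b, chr6:87777820-87778119 (plus strand) for Gp9 and chr16:30310732-30311031 (minus strand) for Gp5.
Pf4: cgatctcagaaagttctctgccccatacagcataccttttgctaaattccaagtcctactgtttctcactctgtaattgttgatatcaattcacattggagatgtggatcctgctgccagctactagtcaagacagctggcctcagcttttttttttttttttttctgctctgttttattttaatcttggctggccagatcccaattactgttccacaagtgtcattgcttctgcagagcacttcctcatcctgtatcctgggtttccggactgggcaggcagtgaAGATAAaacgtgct
Itga2b: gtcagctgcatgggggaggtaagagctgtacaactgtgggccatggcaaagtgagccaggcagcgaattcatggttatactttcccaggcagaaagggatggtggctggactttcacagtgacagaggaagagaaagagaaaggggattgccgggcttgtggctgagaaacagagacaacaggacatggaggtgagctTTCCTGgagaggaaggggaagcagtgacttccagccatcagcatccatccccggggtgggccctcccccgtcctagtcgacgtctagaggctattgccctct
Gp9: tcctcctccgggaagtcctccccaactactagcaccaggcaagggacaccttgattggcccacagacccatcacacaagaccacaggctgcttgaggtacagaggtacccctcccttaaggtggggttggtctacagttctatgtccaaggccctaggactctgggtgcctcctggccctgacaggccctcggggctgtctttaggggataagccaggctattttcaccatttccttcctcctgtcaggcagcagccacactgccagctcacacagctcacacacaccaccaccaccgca
Gp5: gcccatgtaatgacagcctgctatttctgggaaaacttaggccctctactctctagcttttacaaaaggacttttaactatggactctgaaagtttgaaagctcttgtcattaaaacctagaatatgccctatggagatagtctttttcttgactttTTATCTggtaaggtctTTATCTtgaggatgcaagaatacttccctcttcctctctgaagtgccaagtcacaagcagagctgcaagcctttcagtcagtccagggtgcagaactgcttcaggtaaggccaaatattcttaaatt
Pf4 held 1 match to AGATAA and Gp5 held 2. Itga2b held 1 match to CAGGAA, and no match was found in the Gp9 window. Among 32851 RefSeq promoters of the same length, 11.2% held AGATAA, 9.05% TGATAA, 30.6% CAGGAA and 16.9% CGGAAG. A match is a description of the letters and does not show that a factor binds.

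None of the 8 members passed an adjusted p of 0.05 in limma, a linear model fitted across all tested probe sets. Adjusted p-values below come from that fit. The background share of calls was 0% of 25335 probe sets, so the array set as a whole gave no call either. The lowest adjusted p among the members was 0.963. Without adjustment 1 of 8 members had a p under 0.05, Gp9, beside 4.21% of all probe sets (1067). Values were higher in Ahr-KO for 3 members and lower for 5. The median log2 difference, Ahr-KO minus WT, was -0.24 over the 8 members and -0.03 over all tested probe sets, and it turned to 0.13 without WT replicate 1 and -0.64 without WT replicate 2. Throughout, differences are on the scale of log2(intensity + 1), where those of dim probe sets depend on the constant added. In these sorted bulk samples, fewer cells that carry a transcript and less RNA per cell cannot be told apart.

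**Figure D1:**
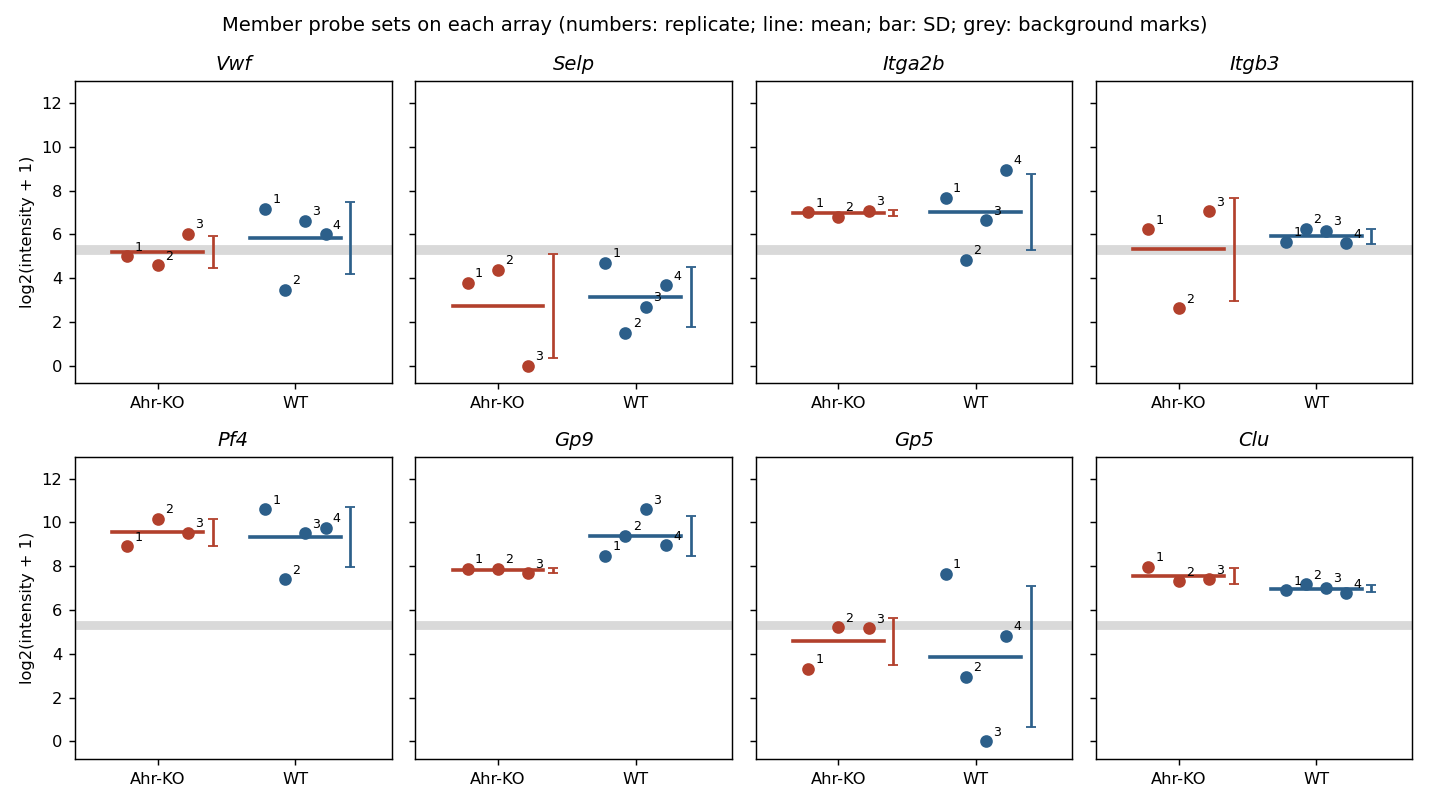
Each panel shows 1 member, with log2(intensity + 1) on the vertical axis and the 3 Ahr-KO arrays left of the 4 WT arrays. Points are arrays numbered by replicate, lines are group means, bars are SD, and the grey band spans the background marks. Gp9 points of Ahr-KO lie below all WT points and Clu points of Ahr-KO lie above them, while the groups overlap for the other 6 members.

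Gp9 encodes platelet glycoprotein IX, a subunit of the GPIb-IX-V complex through which platelets catch von Willebrand factor on injured vessel walls. Its intensity (probe set 17460569) was 234, 235 and 204 on the Ahr-KO arrays, against 358, 673, 1566 and 494 on the WT arrays. The Ahr-KO arrays were close to each other, the WT arrays were spread, and the groups did not overlap. The Ahr-KO mean was 224 ± 17.9 (SD, n = 3) and the WT mean 773 ± 544 (SD, n = 4). The log2 difference was -1.55 ± 0.58 (SE), with a 95% confidence interval (not adjusted for multiple tests) from -2.90 to -0.20, a limma unadjusted p of 0.0293 and an adjusted p of 0.963. An exact two-sided permutation test of the log2 means over all 35 splits of the arrays gave p = 0.0571, where 0.0286 is the smallest p possible. The difference ran from -1.84 to -1.13 when single arrays were left out, and was -1.54 without WT replicate 2 (unadjusted p = 0.0516). All 7 arrays exceeded the background mark.

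Gp5 encodes glycoprotein V of the same complex. Its values (probe set 17329636) were 8.98, 36.2 and 34.7 on Ahr-KO arrays, against 201, 6.80, 0.01 and 27.2 on WT arrays. WT replicate 1 was far above the other 6 arrays, and the mark was exceeded there and on Ahr-KO replicate 2 alone. Its difference of 0.70 ± 1.62 log2 units (SE, adjusted p = 0.977) had an interval from -3.04 to 4.44. It was -0.58 without WT replicate 3 and 1.97 without WT replicate 1, and -0.09 with a pseudocount of 16 in place of 1, so its direction is not established. Its exact permutation p was 0.714. The ligand-binding subunit of the complex, Gp1ba, had no probe set naming it alone.

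Itga2b and Itgb3 encode the alpha and beta chains of the platelet fibrinogen receptor, integrin αIIbβ3. Itga2b (probe set 17270222) stood at 128, 111 and 134 on Ahr-KO arrays, against 202, 27.6, 99.2 and 492 on WT arrays. The Ahr-KO arrays lay within a 1.20-fold range and inside the WT values, which spanned 17.8-fold between WT replicates 2 and 4. Ahr-KO differed from WT by -0.06 ± 0.91 log2 units (SE, adjusted p = 0.996), with an interval from -2.15 to 2.04, an exact permutation p of 1.0, and -0.78 without WT replicate 2.

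Itgb3 (probe set 17257235) stood at 74.2, 5.22 and 133 on Ahr-KO arrays, against 49.5, 75.1, 70.4 and 47.1 on WT arrays. Here the WT arrays were the steady ones. Ahr-KO replicate 2 was the lowest of the 7 arrays and did not exceed the mark, and Ahr-KO replicate 3 was the highest. The log2 difference was -0.60 ± 0.999 (SE, adjusted p = 0.968), with an interval from -2.91 to 1.71 and an exact permutation p of 0.83. It was 0.74 without Ahr-KO replicate 2. The 2 chains of the receptor did not follow each other over the 7 arrays (Pearson r = -0.09).

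Pf4 encodes platelet factor 4, a chemokine stored in platelet alpha granules. Its intensity (probe set 17438969) was 485, 1158 and 740 on Ahr-KO arrays, against 1565, 170, 731 and 865 on WT arrays. It exceeded the mark on every array, with the highest and the lowest value both among the WT arrays. The Ahr-KO mean was 794 ± 340 (SD, n = 3) and the WT mean 833 ± 574 (SD, n = 4). The direction turned with the scale: the mean of log2 values was higher in Ahr-KO, with a difference of 0.22 ± 0.79 (SE, adjusted p = 0.987), with an interval from -1.60 to 2.04 and an exact permutation p of 0.857. It was -0.42 without WT replicate 2. Ppbp, the neighbouring gene in RefSeq and another platelet alpha granule chemokine, stood at 17.4, 709 and 14.3 on Ahr-KO arrays, against 8.92, 3.90, 10.4 and 258 on WT arrays. It exceeded the mark on Ahr-KO replicate 2 and WT replicate 4 alone, and its log2 difference was 1.59 ± 1.74 (SE, adjusted p = 0.963), or -0.21 without Ahr-KO replicate 2.

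Vwf encodes the multimeric adhesive protein that links platelets to collagen and carries clotting factor VIII. Its values (probe set 17463205) were 30.8, 22.9 and 63.9 on Ahr-KO arrays, against 143, 10.0, 97.0 and 63.8 on WT arrays. The mark was exceeded on 1 of 3 Ahr-KO arrays and on 3 of 4 WT arrays, WT replicate 2 being the exception and the lowest of all. On the log2 scale Vwf differed by -0.62 ± 0.91 (SE, adjusted p = 0.967), with an interval from -2.73 to 1.49 and an exact permutation p of 0.600. Without WT replicate 2 it was -1.40, with an unadjusted p of 0.0508 and an adjusted p of 0.940. Ahr-KO replicate 3 then still exceeded WT replicate 4 by less than 1 unit of intensity, so the groups touched.

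Selp encodes P-selectin, which activated platelets and endothelium display to bind leukocytes. Its values (probe set 17218845) were 12.8, 19.9 and 0 on Ahr-KO arrays, against 25.1, 1.84, 5.47 and 11.7 on WT arrays. No array exceeded the background mark, so a difference was not detectable here. The fitted log2 difference of -0.42 ± 1.19 (SE, adjusted p = 0.982) rested on the array listed at 0 and was 0.94 without Ahr-KO replicate 3.

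Clu encodes clusterin, a secreted chaperone that is known as a marker of aged and myeloid- or platelet-biased HSCs. Its intensity (probe set 17301452) was 252, 157 and 168 on Ahr-KO arrays, against 119, 143, 129 and 108 on WT arrays. All Ahr-KO values lay above all WT values, although Ahr-KO replicate 2 and WT replicate 2 were close. The Ahr-KO mean was 192 ± 52.1 (SD, n = 3) and the WT mean 125 ± 14.5 (SD, n = 4). The log2 difference was 0.60 ± 0.42 (moderated SE; limma unadjusted p = 0.196, adjusted p = 0.963), or 1.51-fold, with an interval from -0.38 to 1.57. The exact permutation p was 0.0286, the smallest that 35 splits allow. The moderated SE draws on the spread of all probe sets: the residual SD of Clu was 0.27 log2 units, against a median of 1.10 among the probe sets nearest to it in mean level, 500 on each side. The difference was 0.66 without WT replicate 2 and lay between 0.39 and 0.73 with any single array left out, lowest without Ahr-KO replicate 1.

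Groups that did not overlap were thus seen for 2 of 8 members, 1 in each direction, where 5.74% of all tested probe sets showed the same. By direction, 2.61% of probe sets had every Ahr-KO value above every WT value, as Clu had, and 3.13% had every one below, as Gp9 had. Chosen from 8 members with no adjusted call, these are values to describe and not established changes.

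**Figure D2:**
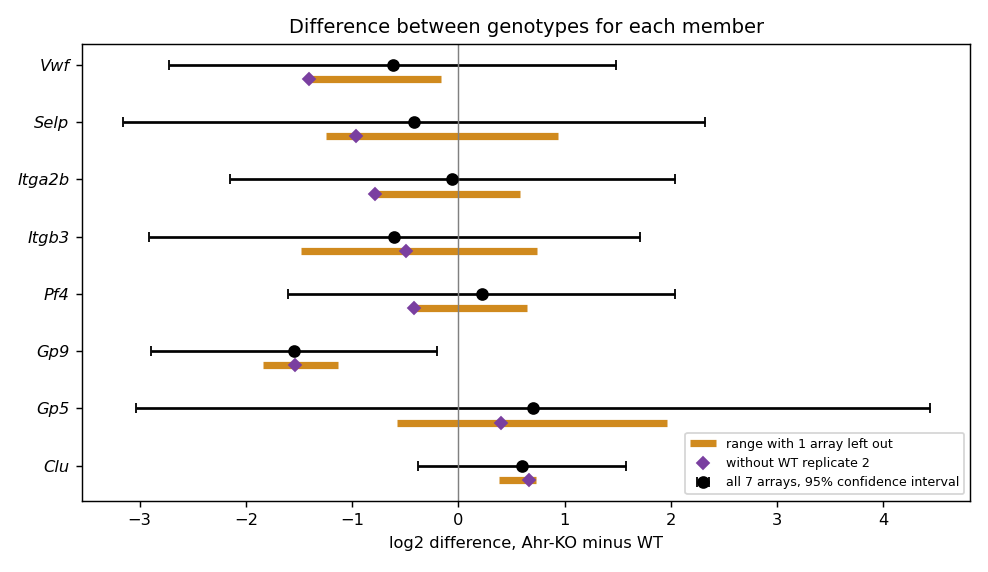
The horizontal axis is the log2 difference, Ahr-KO minus WT, for each member. Black points and bars are the limma estimate and its 95% confidence interval, orange bars the range with any 1 array left out, and purple diamonds the estimate without WT replicate 2. Gp9 is the member whose interval, -2.90 to -0.20, does not reach 0, and the ranges of Selp, Itga2b, Itgb3, Pf4 and Gp5 span 0.

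Variation between arrays of the same genotype was wide for most members. The residual SD exceeded the median of probe sets at a like level for 6 of 8 members. It was 2.58 log2 units for Gp5, 1.84 for Selp and 1.12 for Pf4, beside like-level medians of 0.77, 1.04 and 0.54. Gp9 (0.71 beside 0.73) and Clu lay below their medians.

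Array by array, 4 of 8 members (Vwf, Pf4, Gp5 and Selp, the last below the mark even there) were highest on WT replicate 1, where 14.4% of all tested probe sets had their highest value. On the low side, 3 of 8 members (Vwf, Itga2b and Pf4) were lowest on WT replicate 2, where 19.8% of all probe sets had their lowest value. The median deviation of the members from their own means was 0.93 log2 units on WT replicate 1, 0.40 on WT replicate 4 and -1.33 on WT replicate 2. On the 3 Ahr-KO arrays it lay between -0.24 and 0.15. The same medians over all tested probe sets stayed between -0.12 and 0.13.

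**Figure D3:**
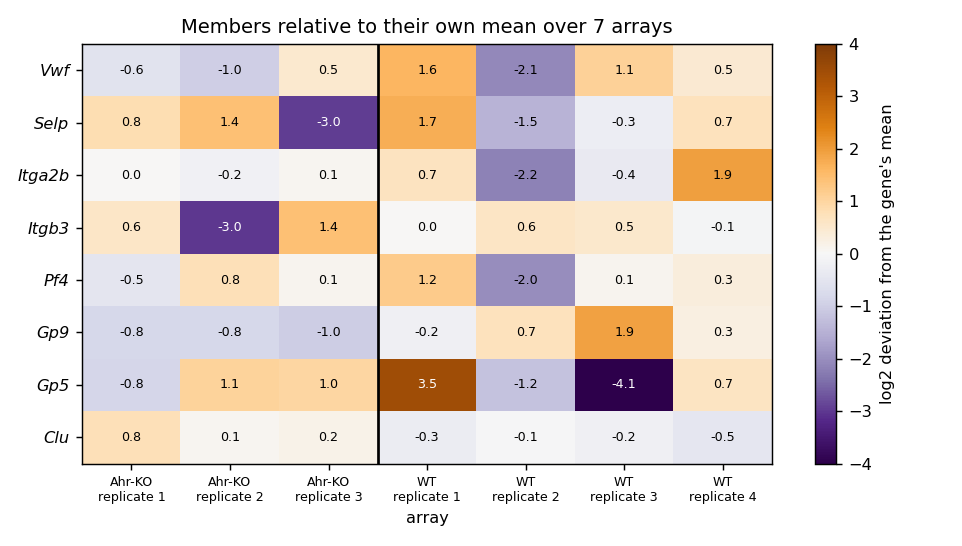
Rows are members and columns arrays, Ahr-KO left of the black line and WT right of it. Colour and number give the log2 deviation from the gene's mean over 7 arrays, from below it (purple) to above it (orange). WT replicate 1 is above the mean and WT replicate 2 below it for Vwf, Selp, Itga2b, Pf4 and Gp5, whereas Itgb3, Gp9 and Clu do not share this order.

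Across the 7 arrays, which share array-wide signal, Vwf and Pf4 correlated at r = 0.75, Itga2b and Pf4 at 0.74, and Vwf and Itga2b at 0.67 (Pearson, log2). These 3 values rested on WT replicate 2, without which they were 0.38, 0.22 and 0.26 over 6 arrays. Gp9 and Gp5 gave r = -0.70, a value that rested on WT replicate 3, where Gp5 was 0.01: without that array it was -0.22, and Gp5 exceeded the mark on only 2 of 7 arrays. Gp9 and Clu, whose groups did not overlap, in opposite directions, gave -0.53, or -0.61 to -0.48 with any single array left out. That value includes the difference between genotypes, which leaving out a single array does not remove. A correlation within each genotype was not computed. Over all 28 pairs the median r was 0.03 and 14 pairs were positive, so the members did not vary as a single unit. With so few arrays many genes track a member closely: of 7678 other genes above the mark on at least 4 arrays, 199 reached r = 0.8 with Vwf, 415 with Pf4 and 285 with Itga2b. The closest to Vwf were Aimp1, Ndn and Smarcd2 (0.99, 0.98 and 0.97), those to Pf4 were Rnf168, Gimap6 and Tra2a (0.98 each), and those to Itga2b were Sft2d1, Ylpm1 and Dnajc3 (0.996, 0.98 and 0.98).

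Partner genes of the programme were read from 5 lists with 66 entries, of which 61 were measured. None passed the adjusted threshold. An unadjusted p under 0.05 was found for 5, or 2 of 13 transcription factors, 2 of 11 HSC ageing genes, 1 of 15 granule and cytoskeleton genes and none of the others, beside the 4.21% given above. Values were lower in Ahr-KO for 42 and higher for 19, with a median log2 difference of -0.31. Over all tested probe sets 51.7% were lower. Groups did not overlap for 6 of the 61 partners, beside 5.74% of all tested probe sets.

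The list of transcription factors that drive the lineage held the gene with the most negative difference among the partners, Mrtfa. Of 13 measured, 10 were lower in Ahr-KO (median -0.38, or -0.24 without WT replicate 2). Mrtfa, a coactivator of serum response factor needed for megakaryocyte maturation, stood at 80.8, 138 and 11.9 on Ahr-KO arrays, against 418, 556, 279.5 and 885 on WT arrays, and the groups did not overlap. Its log2 difference was -3.22 ± 0.86 (SE, adjusted p = 0.963) and stayed at -2.20 or lower with any array left out. Zfpm1, which encodes the GATA1 cofactor FOG-1, stood at 117, 122 and 80.9 on Ahr-KO arrays, against 297, 221, 205 and 296 on WT arrays, also without overlap. Its log2 difference was -1.25 ± 0.43 (SE, adjusted p = 0.963), and it lay between -1.36 and -1.07 with single arrays left out. Nfe2, a regulator of platelet release, had no overlap in the other direction, at 726, 475 and 507 on Ahr-KO arrays, against 451, 332, 240 and 436 on WT arrays. Its log2 difference was 0.66 ± 0.46 (SE, adjusted p = 0.963). Meis1, a homeobox regulator of HSCs and megakaryocytes, differed by -0.77 ± 0.61 (SE), or -1.42 to -0.44 with single arrays left out.

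Gata1 and Fli1, central activators of megakaryocyte genes, gave no stable direction. Gata1 stood at 28.0, 23.9 and 64.8 on Ahr-KO arrays, against 10.3, 1299, 12.5 and 29.8 on WT arrays. The value of 1299 was on WT replicate 2, the array on which Vwf, Itga2b and Pf4 were lowest. Its log2 difference was -0.46 ± 1.59 (SE, adjusted p = 0.986), and 1.11 without that array. Fli1 differed by 0.09 ± 0.72 (SE).

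Receptors and other surface proteins of platelets were lower in Ahr-KO for 11 of 16 genes, with a median of -0.29, or -0.08 without WT replicate 2. None had groups that did not overlap. The thrombin receptor gene F2rl3 differed by -0.94 ± 0.65 (SE), the ATP-gated channel gene P2rx1 by 1.07 ± 1.06 (SE), the tetraspanin gene Cd9 by 1.06 ± 1.19 (SE) and the adhesion receptor gene Cd226, below the mark on every array, by -0.68 ± 0.51 (SE). Single arrays moved these values: P2rx1 was 0.23 without Ahr-KO replicate 3 and 2.29 without Ahr-KO replicate 1, Cd9 was 0.35 without WT replicate 3 and 1.98 without WT replicate 2, and F2rl3 was -0.45 without Ahr-KO replicate 3. Cd9 is the RefSeq neighbour of Vwf. Its brighter probe set gave 750, 2931 and 619 on Ahr-KO arrays, against 772, 3645, 121 and 234 on WT arrays. That probe set was highest on the array where Vwf was lowest, and correlated with Vwf at r = -0.76 (Pearson, log2). The dimmer probe set of Cd9 exceeded the mark on 1 array, differed by 0.16 ± 0.70 (SE) and correlated with Vwf at 0.33.

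Granule, clotting and cytoskeleton genes were lower in Ahr-KO for 10 of 15, with a median of -0.31, or -0.26 without WT replicate 2. Thbs1, the matrix protein thrombospondin of alpha granules, stood at 2.85, 4.45 and 7.44 on Ahr-KO arrays, against 9.04, 18.4, 192 and 143 on WT arrays. The groups did not overlap, but the mark was exceeded on WT replicates 3 and 4 alone. On the log2 scale the difference was -3.10 ± 1.09 (SE, adjusted p = 0.963), or -1.81 with a pseudocount of 16. Sparc, a matrix glycoprotein, differed by 3.74 ± 1.94 (SE), Vps33b, needed for alpha granule formation, by -2.03 ± 0.97 (SE), and Plek, a platelet substrate of protein kinase C, by -2.02 ± 1.54 (SE). With a pseudocount of 16, Sparc was 2.23 and Vps33b -0.97. Vps33b exceeded the mark on 1 of 7 arrays, and Plek on 3 WT arrays and no Ahr-KO array. Plek was -3.47 without WT replicate 2 and -1.21 without WT replicate 1. The platelet tubulin gene Tubb1 exceeded the mark on no array, and its Ahr-KO values all lay below its WT values.

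Thrombopoietin signalling, which drives megakaryocyte growth, was read from 6 genes. Of these, 5 were lower in Ahr-KO. The median of -0.71, or -0.80 without WT replicate 2, was the most negative of the 5 lists. The adaptor gene Sh2b3, an inhibitor of cytokine signalling, differed by -1.59 ± 1.09 (SE), the ubiquitin ligase gene Cbl by -1.49 ± 1.20 (SE), the kinase gene Jak2 by -1.03 ± 0.80 (SE) and Stat5b by 1.63 ± 1.54 (SE). With single arrays left out, the values ran from -3.03 to -0.65 for Sh2b3 (without Ahr-KO replicates 2 and 1), from -2.55 to -0.81 for Cbl (without WT replicates 3 and 2), from -1.61 to -0.50 for Jak2 (without WT replicate 1 and Ahr-KO replicate 1) and from 0.42 to 2.76 for Stat5b (without WT replicates 3 and 1).

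Genes of the HSC ageing signature, to which Vwf, Selp and Clu also belong, were higher for 5 genes and lower for 6 (median -0.14, or 0.06 without WT replicate 2). Slamf1 differed by 2.58 ± 0.97 (SE, adjusted p = 0.963). The scramblase family gene Plscr2 differed by 2.23 ± 1.26 (SE), and by 0.50 without Ahr-KO replicate 3. The endocytic gene Ehd3, above the mark on 1 array, differed by -2.29 ± 0.99 (SE). A pseudocount of 16 gave -0.87 for it. Jam2, a junctional adhesion molecule gene, stood at 11.8, 11.3 and 17.8 on Ahr-KO arrays, against 44.4, 392, 38.5 and 19.2 on WT arrays, without overlap, and differed by -2.10 ± 0.97 (SE), or -1.21 without WT replicate 2. It exceeded the mark on WT replicates 1 and 2 alone.

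**Figure D4:**
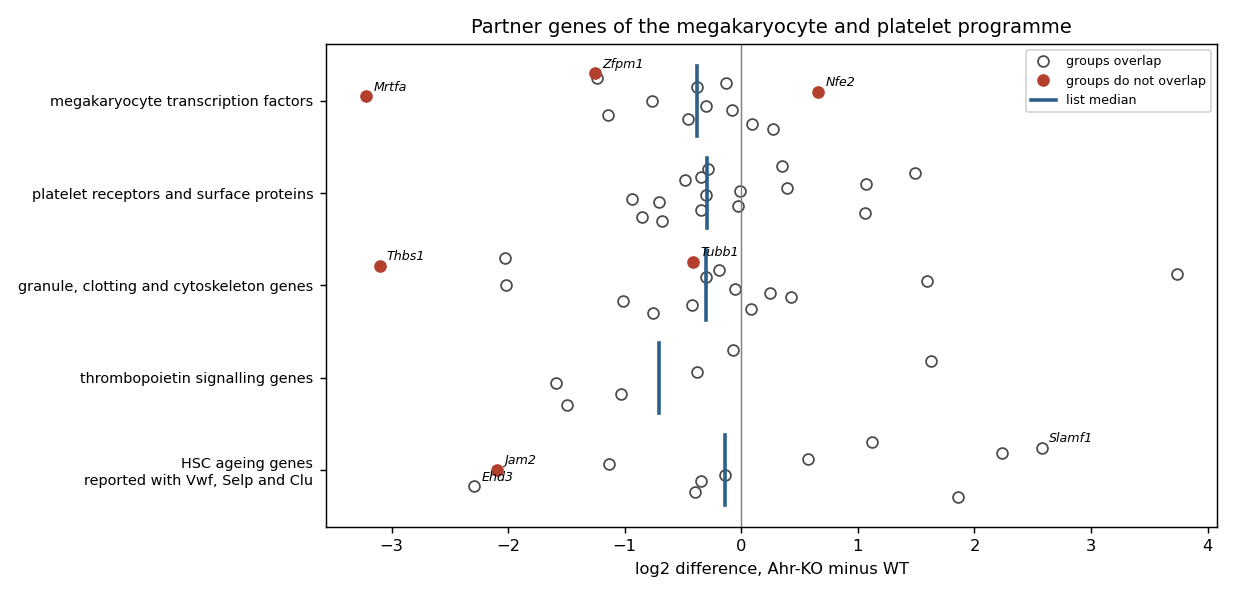
Each circle is a measured partner gene placed by its log2 difference, Ahr-KO minus WT (horizontal axis), in the row of its list. Filled circles are genes whose groups do not overlap, blue lines are list medians, and named genes either do not overlap or have an unadjusted p under 0.05. All 5 list medians lie between -0.71 and -0.14 over the 7 arrays, while without WT replicate 2, not drawn, that of the ageing list is 0.06 and that of the receptors -0.08.

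Markers of other cells varied between arrays, and their part in the member values was not tested. Of 6 measured megakaryocyte and platelet markers outside the member list, Treml1 exceeded the mark on all 7 arrays, and Gp6, Tubb1 and Clec1b on none. Their summed intensity was 247 to 962 on Ahr-KO arrays and 111 to 722 on WT arrays, lowest on WT replicate 2. The 9 granulocyte markers summed to 5412 to 15518 on Ahr-KO arrays and 791 to 16919 on WT arrays, and all 9 had a higher mean log2 value in Ahr-KO, none with an unadjusted p under 0.05. Their sums were lowest on WT replicate 1, where Vwf, Pf4 and Gp5 were highest, and highest on WT replicate 2, where Vwf, Itga2b and Pf4 were lowest. The 13 endothelial markers, which include genes that HSCs also express such as Tie1, Emcn and Egfl7, summed to 1408 to 2775 on Ahr-KO arrays and 911 to 2318 on WT arrays. They were lowest on WT replicate 1, the array with the highest Vwf value. The 5 erythroid markers measured by a probe set of their own summed to 249 to 423 on Ahr-KO arrays and 160 to 260 on WT arrays. The 7 HSC markers summed to 1307 to 1933 on Ahr-KO arrays and 1737 to 2582 on WT arrays, lowest on Ahr-KO replicate 1. Their mean log2 value was instead lowest on WT replicate 2 (5.71, against 5.99 on Ahr-KO replicate 1). The 5 mast cell and basophil markers summed to 599 to 2592 on Ahr-KO arrays and 99.6 to 2911 on WT arrays. Lowest was WT replicate 1 and highest WT replicate 2, where Cpa3 alone gave 1670. By mean log2 value this list was highest on Ahr-KO replicate 2 (7.93, against 7.66 on WT replicate 2). The 8 macrophage and dendritic markers, of which 6 were lower in Ahr-KO, summed to 172 to 841 on Ahr-KO arrays and 387 to 834 on WT arrays. Among them H2-Eb1, an MHC class II gene, stood at 16.4, 43.4 and 132 on Ahr-KO arrays, against 170, 441, 228 and 160 on WT arrays, without overlap (log2 difference -2.30 ± 0.75 SE, adjusted p = 0.963). Adgre1 of the same list (8 measured), Ctnnal1 of the HSC list (7 measured) and Tubb1 (6 measured) also had all Ahr-KO values below all WT values. Of all tested probe sets 3.13% showed the same. Groups overlapped for every other measured marker of the 9 lists. The 5 B lymphoid markers, all lower in Ahr-KO, summed to 90.7 to 168 on Ahr-KO arrays and 126 to 269 on WT arrays. The 3 T lymphoid markers summed to 113 to 163 on Ahr-KO arrays and 86.2 to 189 on WT arrays. Adgre1, Itgax, Cd79a, Vpreb1 and Cd3g of these lists exceeded the mark on no array. No marker of these 9 lists was listed at 0 on all arrays.

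**Figure D5:**
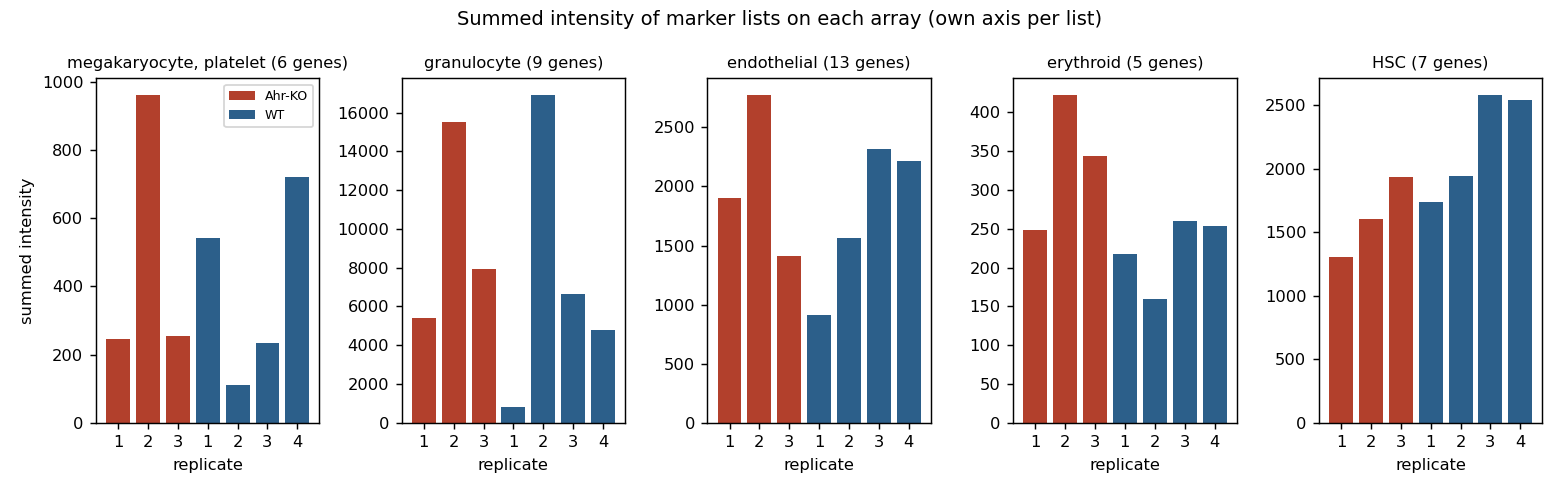
Bars give the summed intensity of 5 of the 9 marker lists on each array, with the 3 Ahr-KO arrays left of the 4 WT arrays and a separate linear axis from 0 for each list. The granulocyte sum is 791 on WT replicate 1 and 16919 on WT replicate 2, and the megakaryocyte and platelet sum is 111 on WT replicate 2.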

How the data were processed

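Microarray intensities of 7 HSC samples were analysed. The deposited intensity values are linear. The submitters' processing notes name Affymetrix Expression Console, and no source used here gives the summarization, background correction, normalization or genome build. The platform annotation listed 25335 of 41155 rows, of which 23521 had 1 gene symbol and 1814 several, and 15820 rows were unnamed here.

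Intensities were transformed as log2(intensity + 1) and fitted by genotype alone over the 7 arrays, with lmFit and eBayes of limma 3.58.1 in R 4.3.3. Two-sided p-values were adjusted by Benjamini-Hochberg over all 25335 probe sets, with a threshold of 0.05. Permutation tests enumerated all 35 splits. Partner and marker genes were represented by their single-symbol probe set of highest mean over all arrays. Named genes were all members, up to 4 per partner list by smallest unadjusted p, Gata1, Fli1 and Ppbp, and the 3 closest correlates of Vwf, Pf4 and Itga2b. The members, lists and tests were chosen with earlier results of these data known. Tubb1, Treml1, Gp6, Clec1b and the cell type markers are named from their lists. The fit was tested on simulated arrays. The number of arrays limits the precision. Arrays with the same replicate number showed no shared variation over all tested probe sets. Their deviations from the group means correlated at 0.02, -0.06 and 0.01 for numbers 1, 2 and 3. Pairing that moved few genes would not appear in these values.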

Additional observations from a re-analysis of the deposited data

Results flagged for a closer look

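Of 31 genes examined for a WT array far from the other WT arrays (members and named partners), 4 had one. The criterion marks about 1 in 20 groups of normally spread values by chance, but on these linear intensities it marked 14.2% of all tested probe sets. Gp5 was 201 on WT replicate 1, with the next WT value at 27.2. Gata1 was 1299 on WT replicate 2, next to 29.8. Ppbp was 258 on WT replicate 4, next to 10.4. Jam2 was 392 on WT replicate 2, next to 44.4. On the log2(intensity + 1) scale none of the 4 met the criterion: the gap was 0.37, 0.79, 0.79 and 0.73 of the WT range for Gp5, Gata1, Ppbp and Jam2.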

How the results depend on the processing

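The count of members past the adjusted threshold was 0 in the fit on all arrays and under all 15 alternatives, where the lowest adjusted p of a member was 0.908, and the counts over the partner genes and over all probe sets were also 0. The alternatives left out each array, or used a replicate block, median centring, quantile normalization, a pseudocount of 16, a filter on dim probe sets, a trended variance prior, array weights, or all rows. The count at an unadjusted p under 0.05 was 495 after the filter on dim probe sets (10730 tested) and 1781 with all 41155 rows, against 1067. The median difference of the members lay between -0.64 and 0.13 with single arrays left out and was -0.48 with array weights. Gp9 and Clu kept their directions under every alternative, as did Vwf. With single arrays left out, 5 members changed sign: Selp (-1.25 to 0.94), Itga2b (-0.78 to 0.58), Itgb3 (-1.48 to 0.74), Pf4 (-0.42 to 0.65) and Gp5 (-0.58 to 1.97). Of the 61 partners 29 did, among the named ones Gata1 (-1.17 to 1.11), Fli1 (-0.33 to 0.87) and Ppbp (-0.21 to 2.83). Itga2b was 0.015 after median centring, Gp5 -0.089 with a pseudocount of 16 and Gata1 0.013 with array weights. The replicate block gave 0.58 for Itga2b and 0.06 for the median of the members, with 1120 probe sets at an unadjusted p under 0.05, and it changed no other direction of a named gene. Since WT replicate 4 shares its number with no Ahr-KO array, that fit drops it from the difference. Taking 1 probe set per gene left the members as they were, since each has 1. Filtering removed Selp and Gp5, which have no value there. The causes were not tested.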

Other observations

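Rab43, a small GTPase gene that neighbours Gp9 in RefSeq, was chosen after its values were seen. It stood at 53.8, 39.4 and 42.7 on Ahr-KO arrays, against 83.4, 116, 59.3 and 66.3 on WT arrays, so its groups did not overlap in the same direction as Gp9. Its log2 difference was -0.79 ± 0.45 (SE, adjusted p = 0.963). Over the 7 arrays Rab43 correlated with Gp9 at r = 0.49. Efcc1, the neighbour on the other side, had groups that overlapped and differed by 0.09 ± 0.63 (SE, adjusted p = 0.994). The array probes were not mapped here, so cross-hybridisation between genes was not examined.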
